A study of Homo sapiens with 2 samples.

Results

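The DNA replication and S phase genes described here are 51 named genes whose products open, copy, protect and repackage DNA in S phase. They were chosen by name, as gene probes carrying one of these names on both arrays. All 51 were among the 27193 gene names on the array, and 50 of them had a probe well above background, out of 13702 genes measured. The RNA came from RMG1, an established cell line of ovarian clear cell carcinoma, grown in DMEM/F12 with 10% fetal bovine serum and sorted by the ALDEFLUOR assay. This assay makes cells with high aldehyde dehydrogenase (ALDH) activity fluorescent, and its gate is set with cells given the ALDH inhibitor DEAB. ALDH+ cells are the ALDEFLUOR high population and ALDH- cells the ALDEFLUOR low population of the same line, sorted without any other treatment named in the labels. Both RNA samples were hybridized together to 2 two-color arrays on 1 slide, with ALDH+ cells in Cy5 on one array and in Cy3 on the other. The labels name RMG1 as the cell line, while the methods section gives AMOC2 for the array RNA. Where a pair of ratios is given below, the first is from the array with ALDH+ in Cy5 and the second from the array with ALDH+ in Cy3. Each population gave 1 RNA extract, so no test between the populations was possible. The SD between the arrays given below is technical, and differences between sorts were not measured.

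Replication begins where the origin recognition complex, CDC6 and CDT1 load the MCM helicase onto DNA before S phase. The kinase CDC7 with its activator DBF4, MCM10 and the GINS complex then turn the loaded helicase into a moving fork. Polymerase alpha with its primase starts each strand, RFC loads the PCNA clamp, and polymerases delta and epsilon extend the strands while RPA covers single-stranded DNA. Many of these genes are transcribed as cells enter S phase, under E2F factors, whereas genes of mitosis are transcribed later, largely under the MuvB complex with B-MYB and FOXM1. The mRNA level of a population therefore reflects, among other things, how many of its cells are in each phase. As RNA of whole populations was hybridized, fewer cells in S phase and less of these mRNAs per cell cannot be told apart.

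The sequences just upstream of the genes were examined first, since E2F factors bind upstream of many S phase genes. RefSeq (GRCh38.p14) gave a promoter, from 250 bases before to 50 bases after the start, for 45 of the 51 genes. GINS4, MCM4, MCM5, POLD3, RPA2 and RPA3 were not matched. Each promoter was searched on both strands for TTTGGCGC, TTTCGCGC, TTTCCCGC and TTTGCCGC. These words can overlap, since TTTGGCGC followed by GAAA also holds TTTCGCGC on the other strand. At least 1 of the words was in 22 of the 45 promoters (48.9%), in 908 of 27305 promoters of all genes (3.33%) and in 3 of 40 promoters of the mitosis genes listed below (7.5%). The word TTTCCCGC was the most frequent among the replication genes (26.7%, against 1.66% of all promoters), and TTTGCCGC was in none of them. CCAAT was in 55.6% of the replication promoters, 75% of the mitosis promoters and 35.7% of all promoters. TTTGAA, the core of the CHR element of mitosis genes, was in 4.44% of the replication promoters, 70% of the mitosis promoters and 15.4% of all promoters. Stretches of 200 bases ending at the transcription start are shown for MCM6, PCNA and MCM3, which were lower in ALDH+ cells and have the letters, and for TIMELESS and POLD2, the lowest and the highest of the 50 genes, which have none of them in this stretch. All 5 are on the minus strand and read 5' to 3', and capitals mark the E2F words. They lie at chr2:135876444-135876643 (MCM6), chr20:5126623-5126822 (PCNA), chr6:52284743-52284942 (MCM3), chr12:56449427-56449626 (TIMELESS) and chr7:44123549-44123748 (POLD2).
MCM6: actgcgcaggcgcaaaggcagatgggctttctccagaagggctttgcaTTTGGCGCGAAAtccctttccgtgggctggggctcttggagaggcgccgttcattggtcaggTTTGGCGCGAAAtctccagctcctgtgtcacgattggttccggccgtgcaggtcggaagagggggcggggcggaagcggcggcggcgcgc
PCNA: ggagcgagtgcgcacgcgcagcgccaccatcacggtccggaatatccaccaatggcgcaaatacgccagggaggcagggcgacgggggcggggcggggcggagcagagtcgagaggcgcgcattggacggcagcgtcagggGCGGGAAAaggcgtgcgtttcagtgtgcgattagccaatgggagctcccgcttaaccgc
MCM3: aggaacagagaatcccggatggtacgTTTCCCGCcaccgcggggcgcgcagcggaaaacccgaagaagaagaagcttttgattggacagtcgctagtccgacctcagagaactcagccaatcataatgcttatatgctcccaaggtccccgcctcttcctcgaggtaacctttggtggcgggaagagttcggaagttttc
TIMELESS: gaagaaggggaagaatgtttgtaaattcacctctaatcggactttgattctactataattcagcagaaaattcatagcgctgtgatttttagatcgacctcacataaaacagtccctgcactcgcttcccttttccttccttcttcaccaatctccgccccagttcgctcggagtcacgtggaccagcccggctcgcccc
POLD2: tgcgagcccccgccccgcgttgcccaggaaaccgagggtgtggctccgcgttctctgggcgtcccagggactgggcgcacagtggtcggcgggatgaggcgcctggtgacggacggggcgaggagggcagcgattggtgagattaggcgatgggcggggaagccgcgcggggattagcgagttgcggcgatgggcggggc
Among matches that lie wholly upstream, the nearest was 78 bases before the start in MCM6, 51 in PCNA and 166 in MCM3. MCM3 had 2 matches in its promoter, and the other one ended past the start, so it is not marked. The 4 matches of MCM6 are overlapping pairs at 2 places. A match describes letters, not a binding site. Presence of the letters did not separate the ratios. The median log2 ratio was -0.11 for the 21 measured genes with the letters and -0.10 for the 23 without.

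Over the 50 measured replication genes, mRNA was slightly lower in ALDH+ than in ALDH- cells, and the difference was uneven between complexes. The median log2 ratio of ALDH+ over ALDH- cells was -0.13 on the first array and -0.15 on the second. Averaging the arrays gene by gene gave a median of -0.10, against -0.0024 for all 13702 genes. The ratios ran from -0.61 for TIMELESS to 0.39 for POLD2, so no replication gene reached a 2-fold difference. In the mean, 35 genes were lower (50.4% of all genes were) and 15 were higher in ALDH+ cells. On both arrays 27 were lower (36.1% of all genes measured were) and 9 were higher (33.7% of all genes), whereas 14 had opposite signs (30.2% of all genes). These counts depended on the dye normalization. With median centring of each array in place of loess, only 2 were lower and none was higher on both arrays, while the centring left medians over all genes of 0.56 on the first array and -0.43 on the second. Measured from each array's own median, 26 replication genes were lower on both arrays with loess (35.2% of all genes) and 14 with median centring (23.1% of all genes). In the mean over arrays, median centring put all genes at a median of 0.073, so ratios given with it below carry that shift. The replication median lay 0.10 below that of all genes with either normalization. Against a fold threshold, 1 gene was more than 1.5-fold lower (4.58% of all genes) and none more than 1.5-fold higher (1.51% of all genes). None passed 2-fold, which 0.708% of all genes did downwards and 0.212% upwards.

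Most single ratios were small. The quartiles of the 50 genes were -0.26 and 0.026, against -0.19 and 0.15 for all genes. Below the 10th percentile of all genes (-0.41) were 7 replication genes, and 1 was above the 90th percentile (0.29). The ratio exceeded the SD between arrays for 32 of the 50, and for 60.8% of all genes. The median SD was 0.092, against 0.11 for all genes, and the median size of the ratio was 0.16. Across the 50 genes, which share both extracts and both arrays, Pearson's r between the arrays was 0.66 and Spearman's rho was 0.68, against 0.69 and 0.59 across all genes. Ratios and probe brightness had a rho of -0.31 across the 50 genes and of -0.041 across all genes, and the part of brightness in the ratios was not tested.

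**Figure D1:**
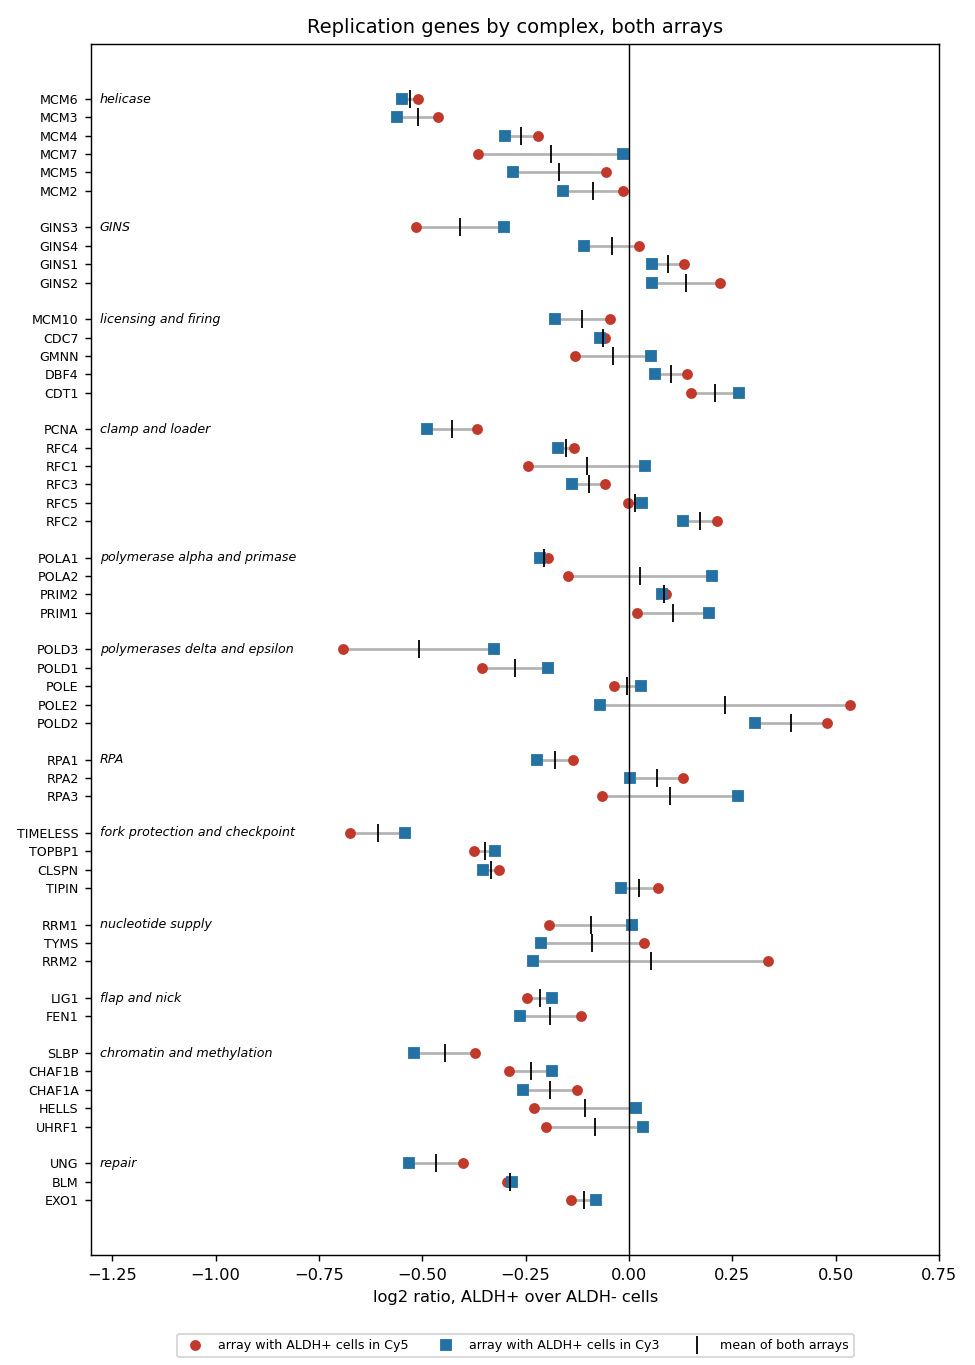
Log2 ratio of ALDH+ over ALDH- cells for the 50 measured replication genes, grouped by complex (x axis, log2 scale). Circles are the array with ALDH+ cells in Cy5, squares the array with ALDH+ cells in Cy3 and ticks their mean. All MCM2 to MCM7 means lie left of 0, TIMELESS is lowest at -0.61 and POLD2 highest at 0.39.

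With loess and the brightest probe of each gene, every subunit of the helicase was lower on both arrays (36.1% of all genes were). With median centring, only 2 of all 50 replication genes were, but it left the medians over all genes at 0.56 and -0.43 on the arrays. Measured from each array's own median, 14 of the 50 were lower on both arrays with that centring (23.1% of all genes). MCM2 to MCM7 form the ring that unwinds DNA at the fork, and their median log2 ratio was -0.23, or -0.096 with median centring. The mean was below 0 for 6 of 6 subunits (50.4% of all genes were), but with median centring MCM2 was at 0.029 and MCM7 at 0.075. Measured from the median of all genes under that centring, these were -0.045 and 0.0023. MCM6 was lowest, with ratios of -0.51 and -0.55 (mean -0.53, 1.44-fold lower, SD 0.029). Its normalized signals were 1285 in ALDH+ and 1829 in ALDH- cells on the first array, and 1224 and 1792 on the second. These signals are 2 technical readings of 1 extract per population. The MCM6 probe lies at chr2:136598217-136598276 of hg19 on the minus strand. MCM3 had ratios of -0.46 and -0.56 (mean -0.51, 1.43-fold lower, SD 0.071). Its normalized signals were 5666 and 5137 in ALDH+ cells against 7798 and 7582 in ALDH- cells. The probe of MCM3 lies at chr6:52128893-52128952 of hg19 on the minus strand. With median centring the mean ratio of MCM3 was -0.25, so its size, unlike its sign, depended on the dye normalization. MCM4 followed with ratios of -0.22 and -0.30. The remaining subunits were closer to 0. MCM5 had ratios of -0.056 and -0.28, and a second, dimmer probe of MCM5 gave 0.13 and -0.13 (mean -0.0039). MCM7 had ratios of -0.37 and -0.014, and its second probe gave 0.20 and -0.065 (mean 0.069). MCM2 had ratios of -0.014 and -0.16. The 6 subunits, which act in equal number in 1 ring, thus had mean mRNA ratios from -0.53 to -0.087, and the spread between MCM6 and MCM2 was larger than the SD between arrays of either.

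The GINS complex, which joins the MCM ring and CDC45 in the active helicase, was split. GINS3 was lower, with ratios of -0.51 and -0.30 (mean -0.41, 1.33-fold lower, SD 0.15). GINS1 had ratios of 0.13 and 0.055, and GINS2, whose probe was printed in 10 spots, had ratios of 0.22 and 0.055 (mean 0.14, SD 0.12). GINS4 had opposite signs on the arrays, 0.024 and -0.11. Of the 4 GINS genes, GINS3 alone lay below 0 on both arrays.

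Factors that load and fire the helicase were close to even between the populations, with a median of -0.038 over 5 measured genes. CDT1, which brings MCM rings to origins, was highest of them, with ratios of 0.15 and 0.27 (mean 0.21, 1.16-fold higher, SD 0.083). GMNN, which encodes the CDT1 inhibitor geminin, had opposite signs, -0.13 and 0.053. MCM10 was lowest of the group, with ratios of -0.047 and -0.18 (mean -0.11, SD 0.094). Neither partner of the kinase that fires origins differed by much. CDC7, the catalytic subunit, had ratios of -0.058 and -0.070, and DBF4, its activator, had ratios of 0.14 and 0.063. CDC6, which loads the helicase with CDT1, was the gene without a measured probe. It was well above background on 1 array in each population, and its ratios there, 0.18 and -0.57, are not used in any count.

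PCNA, the sliding clamp that holds polymerases on DNA, was lower in ALDH+ cells, whereas its loader was mixed. The brightest PCNA probe was printed in 10 spots, with an SD between spots of 0.039 on either array. It gave ratios of -0.37 and -0.49 (mean -0.43, 1.34-fold lower, SD between arrays 0.085), and -0.23 with median centring. A second PCNA probe gave a mean of -0.36, so both probes placed PCNA below 0. The first probe matches chr20:5095957-5096102 of hg19, a span wider than its 60 bases, so it crosses a splice junction, and the second matches chr20:5098164-5098223. Both probes are on the minus strand. RFC2 was the highest subunit of the loader, with ratios of 0.21 and 0.13 (mean 0.17). RFC4 was the lowest, with ratios of -0.13 and -0.17 (mean -0.15). Between these lay RFC1 and RFC5, which had opposite signs on the arrays. RFC1 had ratios of -0.24 and 0.039, and RFC5 of -0.0033 and 0.031. RFC3 had ratios of -0.059 and -0.14 on its brightest probe, but its second probe gave a mean of 0.32. The RFC3 probes therefore differed in sign, and the direction of RFC3 is unsettled.

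Polymerase alpha and primase, which lay down the first RNA and DNA of each strand, had a median of 0.055. POLA1, the catalytic subunit of the polymerase, was lower at -0.20 and -0.21 (mean -0.20, SD 0.013). Its partner POLA2 had opposite signs, -0.15 and 0.20. PRIM1, the catalytic subunit of primase, had ratios of 0.019 and 0.19 (mean 0.11), and PRIM2, the large subunit, of 0.088 and 0.079 (mean 0.084). POLA1 was thus the only gene of this complex below 0 on both arrays.

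The extending polymerases held both the highest replication gene and some of the lowest. In polymerase delta, POLD2, an accessory subunit, was highest of all 50 genes, with ratios of 0.48 and 0.31 (mean 0.39, 1.31-fold higher, SD 0.12). Its normalized signals were 539.9 and 475.8 in ALDH+ cells against 387.5 and 385.1 in ALDH- cells. The probe of POLD2 lies at chr7:44156765-44156824 of hg19 on the minus strand. POLD3, another accessory subunit, was among the lowest, with ratios of -0.69 and -0.33 (mean -0.51, 1.42-fold lower), but its SD between arrays was 0.26. POLD1, the catalytic subunit, had ratios of -0.35 and -0.20 (mean -0.28). The subunits of polymerase delta therefore spanned 0.39 to -0.51 within 1 enzyme. In polymerase epsilon, the catalytic subunit POLE had ratios of -0.037 and 0.028. POLE2 had ratios of 0.53 and -0.071, and its SD of 0.43 was larger than its mean of 0.23. Neither epsilon gene had the same sign on both arrays.

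RPA, which coats single-stranded DNA, showed no common direction. RPA1, the largest subunit, had ratios of -0.14 and -0.22 (mean -0.18). RPA2 had ratios of 0.13 and 0.0030, and RPA3 of -0.065 and 0.26 (mean 0.099). RPA3 had opposite signs, so RPA1 and RPA2 were the subunits with the same sign on both arrays, and these signs differed.

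The fork protection and checkpoint genes had the lowest median of the 12 groups with the setting used here, -0.34. It ran from -0.54 to -0.24 over the alternatives. Without background correction, and with background from negative control spots, the repair genes had the lower median (-0.29 against -0.24, and -0.325 against -0.29). TIMELESS, which keeps helicase and polymerase together at the fork, was the lowest replication gene, with ratios of -0.67 and -0.54 (mean -0.61, 1.52-fold lower, SD 0.094). Its normalized signals were 2903 and 2815 in ALDH+ cells and 4631 and 4097 in ALDH- cells. The probe of TIMELESS lies at chr12:56810945-56811004 of hg19 on the minus strand, and 4.09% of all genes were lower still. TIMELESS passed 1.5-fold by less than its SD between arrays. It was not past 1.5-fold on the second array alone, nor with median centring, where its ratio was -0.40. TIPIN, the binding partner of TIMELESS, had opposite signs, 0.069 and -0.019, so a low ratio was not shared by the partners. TOPBP1, an activator of the checkpoint kinase ATR, had ratios of -0.37 and -0.32 (mean -0.35, SD 0.036). CLSPN encodes claspin, which links ATR to its target kinase CHK1, and had ratios of -0.32 and -0.35 (mean -0.33, SD 0.027). In ALDH+ cells the CLSPN probe passed the background criterion on 1 array only, and the array software's own ratio put it at -0.85, so the size of its difference is uncertain.

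Enzymes of nucleotide supply had no direction that held on both arrays. RRM2, the small subunit of ribonucleotide reductase, had ratios of 0.34 and -0.23, and its SD of 0.40 exceeded its mean of 0.052. RRM1, the large subunit, had ratios of -0.19 and 0.0080. TYMS, which encodes thymidylate synthase, had ratios of 0.035 and -0.21. All 3 genes thus differed in sign between the arrays.

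The genes that finish the lagging strand were both lower. FEN1, the nuclease that removes flaps, had ratios of -0.12 and -0.26 (mean -0.19, SD 0.10). LIG1, the ligase that seals the nicks, had ratios of -0.25 and -0.19 (mean -0.22, SD 0.042). Both were lower on both arrays, though with median centring FEN1 was at -0.11 and LIG1 at -0.059.

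Genes that restore chromatin and methylation behind the fork were lower in 5 of 5 cases in the mean (50.4% of all genes were). Their median of -0.19 was below 0 under every alternative run and -0.082 with median centring. SLBP, which binds the stem-loop at the end of replication-dependent histone mRNAs, was lowest, with ratios of -0.37 and -0.52 (mean -0.45, 1.36-fold lower, SD 0.11), and -0.24 with median centring. Its probe lies at chr4:1694973-1695032 of hg19 on the minus strand. CHAF1B and CHAF1A, subunits of the chromatin assembly factor that places histones on new DNA, were lower on both arrays. CHAF1B, printed in 10 spots, had ratios of -0.29 and -0.19 (mean -0.24), and CHAF1A of -0.13 and -0.26 (mean -0.19). With median centring CHAF1B was at -0.13 and CHAF1A at -0.082. HELLS and UHRF1, which act in maintaining DNA methylation, had opposite signs on the arrays with their brightest probes. HELLS had ratios of -0.23 and 0.016, and UHRF1 of -0.20 and 0.034. Their second, dimmer probes were below 0 on both arrays. The second probe gave -0.14 and -0.30 (mean -0.22) for HELLS, and -0.039 and -0.0036 (mean -0.021) for UHRF1.

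The repair genes of the list were lower on both arrays in 3 of 3 cases (36.1% of all genes were), with a median of -0.29. UNG, the glycosylase that removes uracil from DNA, was lowest, with ratios of -0.40 and -0.53 (mean -0.47, 1.38-fold lower, SD 0.092), and its ratio was -0.20 with median centring. The UNG probe lies at chr12:109548738-109548797 of hg19 on the plus strand. BLM, a helicase that resolves joined DNA molecules, had ratios of -0.29 and -0.28 (mean -0.29, SD 0.0076). EXO1, a nuclease of mismatch repair, was closest to 0, with ratios of -0.14 and -0.079 from 10 spots (mean -0.11, SD 0.043). Of the 12 groups, 9 had a median below 0 and 3 (GINS, polymerase alpha with primase, and RPA) above 0.

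**Figure D2:**
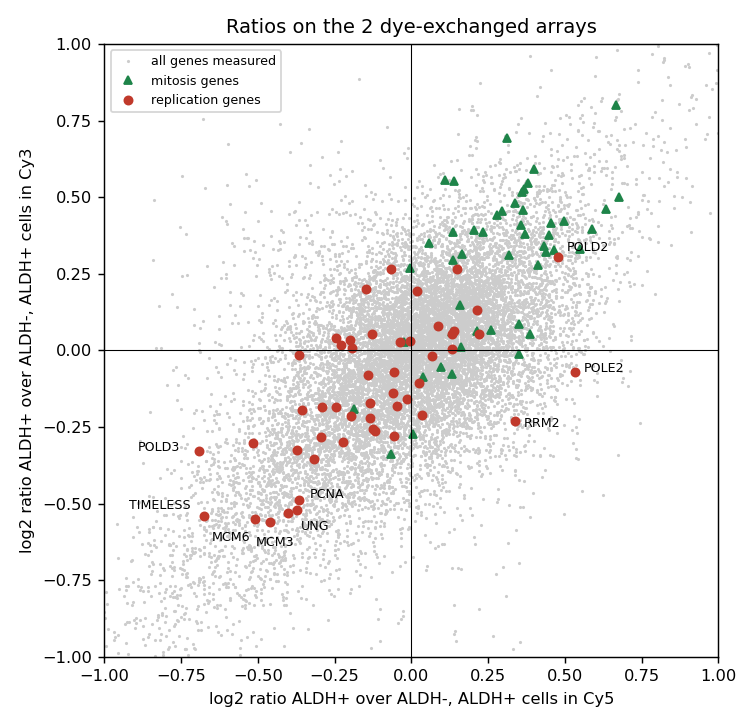
Log2 ratio of ALDH+ over ALDH- cells with ALDH+ cells in Cy5 (x axis) against the same ratio with ALDH+ cells in Cy3 (y axis), within 1 log2 unit either way. Gray points are all genes measured, circles the replication genes and triangles the mitosis genes. MCM6, MCM3, PCNA and UNG lie at the lower left, near the line of equal ratios, whereas RRM2 and POLE2 lie at the lower right, with opposite signs on the arrays.

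Further genes of replication and S phase, outside the 51, were also slightly lower in the median. Of 48 such genes, 45 were measured, with a median of -0.083. On both arrays 22 were lower (36.1% of all genes were) and 13 were higher (33.7% of all genes). MSH6, a mismatch repair subunit, was the lowest and the only one past 1.5-fold, with ratios of -0.78 and -0.65 (mean -0.71, 1.64-fold lower). CCNA2, the gene of cyclin A2, was the highest, with ratios of 0.33 and 0.43 (mean 0.38). The origin recognition subunits were singled out after their values were seen. Their mean was above 0 in 6 of 6 cases, as it was for 6796 of all 13702 genes. On both arrays 4 of them (ORC1, ORC2, ORC4 and ORC5) were higher (33.7% of all genes were). ORC3 and ORC6 had opposite signs, with means of 0.087 and 0.0031. CDC45, the partner of MCM and GINS in the helicase, had ratios of -0.47 and -0.31 (mean -0.39).

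Genes of mitosis lay on the other side of the replication genes. All 48 were measured, with medians of 0.32 and 0.35 on the arrays and of 0.34 in the mean. On both arrays 39 were higher (33.7% of all genes were) and 2 were lower (36.1% of all genes). The medians of mitosis and replication genes were 0.44 apart on the log2 scale. UBE2C, which feeds ubiquitin to the anaphase-promoting complex, was the highest of them, with ratios of 0.67 and 0.80 (mean 0.73, 1.66-fold higher). HMMR, a spindle protein, had ratios of 0.68 and 0.50 (mean 0.59), and these were the genes past 1.5-fold. MKI67, a marker of cycling cells, was the lowest, with ratios of -0.067 and -0.34 (mean -0.20). TOP2A, the other listed marker of cycling cells, went the other way, with ratios of 0.50 and 0.42 (mean 0.46). Of the mitosis genes, 16 were above POLD2, the highest replication gene, and 3 were below the replication median. POLD2 was also the 1 replication gene above the mitosis median.

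**Figure D3:**
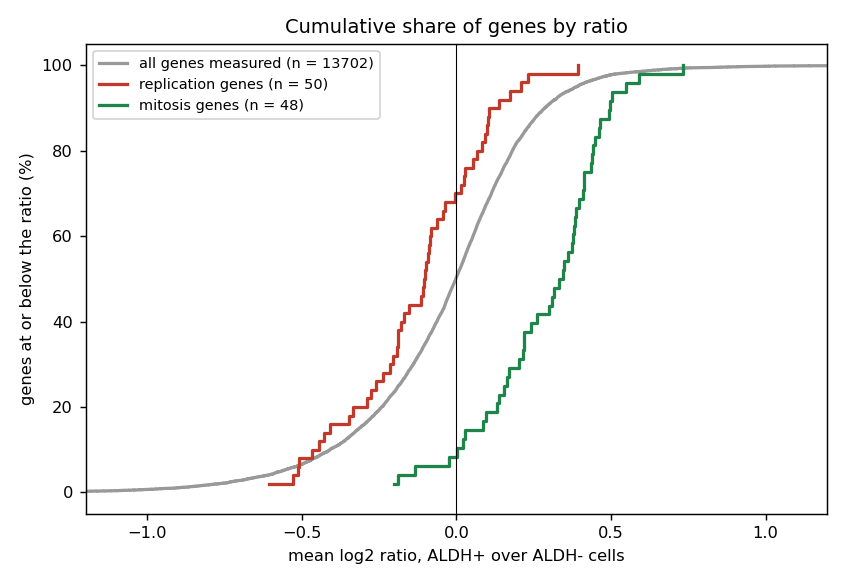
Cumulative share of genes (y axis, percent) at or below a given mean log2 ratio of ALDH+ over ALDH- cells (x axis). The curve of the 50 replication genes lies left of that of all 13702 genes over most of its length, with a median of -0.10 against -0.0024, and the curve of the 48 mitosis genes lies to the right, with a median of 0.34.

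Histone genes, whose mRNAs are made in S phase, were also placed beside the replication genes. Of 68 on the array, 58 were measured, with medians of 0.29 and 0.13 on the arrays and of 0.22 in the mean. On both arrays 44 were higher (33.7% of all genes were) and 3 were lower (36.1% of all genes). The highest was HIST2H2AA4, with ratios of 0.68 and 0.16 (mean 0.42), and the lowest HIST1H1D, with ratios of -0.10 and -0.072 (mean -0.088). Most of these mRNAs end without a poly(A) tail while the labeling used an oligo dT primer, and histone genes are near-identical copies, so single values are uncertain. The part of either in the ratios was not tested.

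The arrays and the cells set the limits of these values. Each array had 43118 spots of gene probes, with between 21697 and 27979 of them well above background per population. No gene probe spot was saturated, and 49 of the replication genes passed the background criterion for both populations and both arrays. Negative control spots had medians of 127.2 and 135.2 in Cy3 against 43.1 and 45.1 in Cy5. For the clear cell carcinoma line, 7 of 7 markers reported here were measured (NAPSA, GPX3, ANXA4, PAX8, KRT8, KRT18 and EPCAM), as were 2 of 5 leukocyte and 0 of 3 fibroblast markers. PAX8 was the lowest marker of the line, with ratios of -0.83 and -0.64 (mean -0.74, 1.67-fold lower), and GPX3 the highest, with opposite signs of 0.48 and -0.084 (mean 0.20). Of the leukocyte markers, PTPRC had opposite signs, -0.12 and 0.19, and CD14 had ratios of 0.32 and 0.58. The part of these markers in the replication ratios was not tested. Of the ALDH genes counted for the ALDEFLUOR assay, 4 of 5 were measured, and ALDH1A3 was the highest, with ratios of 0.65 and 0.56 (mean 0.61, 1.52-fold higher). ALDH2 was the lowest of them, with ratios of -0.20 and -0.13 (mean -0.17). ALDH1A1 was not well above background.

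**Figure D4:**
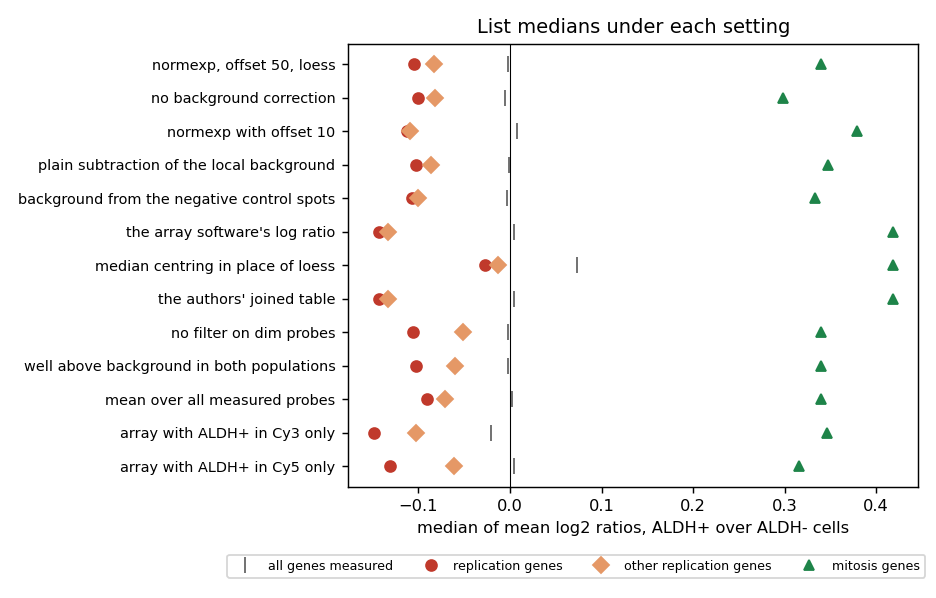
Median of mean log2 ratios of ALDH+ over ALDH- cells (x axis) for all genes, the replication genes, other replication genes and mitosis genes under the setting used here and 12 alternatives (y axis). The replication median is below 0 in each, from -0.15 to -0.027, and the mitosis median lies between 0.30 and 0.42.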

How the data were processed

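Two-color 60-mer arrays were processed from the scanner output. The authors deposited spot intensities of both dyes with their local background, not normalized, and a log10 ratio that the array software computed from its own background-subtracted, dye-normalized signals. A joined table deposited by the authors repeats these log10 ratios and holds 4 further signal columns, which were not used. The file headers give Feature Extraction 10.7.3.1, whereas the submitters' processing notes name Agilent Feature Extraction 8.5.1.1. The normalization behind the study's ratios is not given in the sources used here. Mean signals were corrected with normexp (offset 50) and normalized by loess within each array in limma 3.58.1 (R 4.3.3). Control spots had weight 0, and 531 and 519 outlier spots were left out. Spots of a probe were averaged, ratios turned to ALDH+ over ALDH- cells, and the 2 arrays, a dye swap of the same extracts, averaged as 1 replicate. A gene was measured if, for either population, more than 50% of a probe's spots were well above background on each array, and its brightest such probe was used, under the name on the array. Only background correction and loess were run on simulated arrays, with known changes put on bright probes, so dim probes and other steps were not covered. Tables and figures were made with Python 3.11.15, numpy 2.4.6, pandas 2.3.3, scipy 1.17.1 and matplotlib 3.10.9. Promoters came from RefSeq, GRCh38.p14, and probe positions (hg19) from the files.

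The members and all gene lists were chosen with earlier results of these data known. Any measured member could be named. Both arrays' values were given for the lowest and highest gene of each complex, and for genes past 1.5-fold or with opposite signs, and of other lists for the lowest, the highest and those past 1.5-fold. The ORC genes and CDC45 were added outside this rule. The 12 alternatives were uncorrected signals, a normexp offset of 10, subtracted local background, negative-control background, the software's ratio, the joined table, median centring, 2 other filters, the mean over probes, and each array alone. With 1 extract per population, the arrays measure technical precision only, and no p-value is given.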

Additional observations from a re-analysis of the deposited data

How the results depend on the processing

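The median of the replication genes stayed below 0 under all 12 alternatives. It was -0.14 with the array software's ratio, -0.027 with median centring, and -0.091 with the mean over all measured probes, against -0.10. The joined table of the authors repeats the software's ratios, so it is not a separate check. With median centring the median of all genes was 0.073, so the replication median lay 0.10 below it, as with loess. On single arrays the replication median was -0.15 and -0.13. With median centring, 2 genes were lower and 0 higher on both arrays, against 27 and 9. That centring left the medians over all genes at 0.56 and -0.43 on the arrays. Measured from each array's own median, 14 replication genes were lower on both arrays with it (23.1% of all genes), and 26 with loess (35.2% of all genes). On the array with ALDH+ in Cy5 alone, 36 genes were lower (49.3% of all genes were) and 14 higher. On the array with ALDH+ in Cy3 alone, 32 were lower (53.1% of all genes were) and 18 higher. The count past 1.5-fold lower was 2 with the software's ratio, 0 with median centring, and between 0 and 2 on single arrays. The share of all genes past it, 4.58%, was taken with the main setting only. No gene was past 1.5-fold higher under any alternative. Under the 6 alternatives of background and dye correction, 8 of 300 single-gene means over arrays had the other sign, 6 of them with median centring. Over all 12 alternatives, single arrays included, 24 of 599 values had the other sign. In these, 17 genes changed sign at least once and 33 kept it. Many of the 599 values were fixed or repeated, so these counts overstate stability. The 2 other filters left every single-gene value as it was, and the joined table repeats the software's ratios. The mean over probes could alter only the 8 genes with 2 measured probes. Among complexes, the medians of the helicase, clamp and loader, fork protection, flap and nick, chromatin and repair groups kept their sign. The offset compresses ratios of dim probes such as CLSPN. Each array already pairs the populations in its ratios, and with 1 extract per population no test was possible.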
